A study of Mus musculus with 167 samples.

Results

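The 39 Hox cluster genes of the mouse were followed through every RNA library of a study of B-cell development in bone marrow. A row of the expression tables was taken as a member when its symbol was Hoxa, Hoxb, Hoxc or Hoxd followed by a number and nothing else, after an added suffix had been cut. This gave 11 Hoxa, 10 Hoxb, 9 Hoxc and 9 Hoxd genes among 24643 rows that all 44 libraries shared. No measured value entered the choice.

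Hox genes encode homeodomain transcription factors that set position along the body axis, and in blood several Hoxa and Hoxb genes are known for their expression in stem and progenitor cells and their loss on differentiation. They stand in 4 clusters in a fixed order, with low numbers at the 3′ end and high numbers at the 5′ end, and genes with the same number in different clusters are paralogues. Outside the tissues that use them, the clusters are the textbook target of Polycomb repression. Polycomb repressive complex 2, of which Eed is a core subunit, methylates histone H3 at lysine 27, and Polycomb repressive complex 1 acts with it. Trithorax-type activators such as Kmt2a (Mll) oppose them, and the TALE homeodomain proteins of the Meis, Pbx and Pknox families bind DNA together with Hox proteins.

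All animals were C57BL/6 mice, and RNA came from bone marrow cells sorted by flow cytometry except where culture is named. Pro-B cells carried Eed F/F with no Cre (1 library), Eed F/+ with Rag1-cre (3) or Eed F/F with Rag1-cre (5). F is a floxed allele and Rag1-cre is a Cre recombinase driven from a gene of early lymphoid cells, which the heterozygous controls carry as well. Progenitors lacking Pax5 (Pax5 -/-, 2 libraries) were set against Pax5 +/+ pro-B cells (3). Pax5 is the transcription factor that commits cells to the B lineage. Wapl +/+ and Wapl ∆P1,2/∆P1,2 cells were compared as sorted pro-B cells (2 against 2), sorted pre-B cells (2 against 2) and pro-B cells expanded in vitro for 3 days (2 against 3). Wapl releases cohesin from chromatin, and the ∆P1,2 allele removes Pax5-binding elements at the Wapl promoter. The remaining 17 libraries were immature B cells with alleles of the immunoglobulin heavy-chain locus: Igh +/+ (2) and 890-inv/+ (2) in 1 library series, Igh +/+ (3), CBE/+ (2) and CBE-inv/+ (2) in another, and +/∆890 (2), V8-8/∆890 (2) and V8-8-inv/∆890 (2) in a further one, in which every animal carried the ∆890 allele. The ages and sexes of the animals are not given in the labels, nor whether libraries of a group came from separate animals, so the p-values below measure only the spread between these libraries.

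The deposited values are TPM, transcript levels scaled to a fixed library total and corrected for transcript length, so that levels can be compared between genes. TPM keeps no read depth, so the depth behind each value is unknown. Between 14594 and 16680 rows were above 0 in a library, and no pair of libraries held identical values. The targeted genes were read first. The Pax5 row stood at 342, 386 and 391 TPM in Pax5 +/+ and at 43.0 and 39.1 TPM in Pax5 -/-. The Wapl row, listed under its older symbol Wapal, was 10.4 and 11 TPM in Wapl +/+ pro-B cells and 30.9 and 31.7 TPM in ∆P1,2/∆P1,2 pro-B cells. The series' design text arranges the Eed and Pax5 libraries by number in a way that departs from their genotype labels. It sets the library labelled Eed F/F Rag1-cre replicate 2 with the F/+ libraries and the one labelled F/+ Rag1-cre replicate 3 with the F/F Rag1-cre libraries, and it calls the Pax5 -/- pair controls. Groups follow the genotype labels, which the Pax5 row matches. The Eed row did not fall in the libraries labelled Eed F/F Rag1-cre. It read 122 TPM without Cre, 58.4, 104 and 94.3 TPM in F/+ and 222, 132, 123, 126 and 126 TPM in F/F Rag1-cre, and a sum over the whole gene cannot check the loss of a part of it, so the Eed labels rest on the submitters' word alone. Cd79a, a chain of the B-cell receptor complex, was 1922 TPM or more in every library but the Pax5 -/- pair (542 and 608 TPM). Igll1, a surrogate light chain of pro-B cells, was 1777 TPM or more in every pro-B library, and lay between 35.1 and 42.4 TPM in Wapl +/+ pre-B cells.

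Promoters of the genes that carry the results are printed here, because Hox clusters are known for CpG-rich promoters and because the results turn on these 5 genes. Hoxa7 and Hoxb4 were the main transcripts of B-lineage cells, while Hoxc4, Hoxb8 and Hoxd13 were close to 0 in all but the Eed F/F Rag1-cre libraries. RefSeq promoters on GRCm38.p6 (250 bases before and 50 after the annotated start) were matched by symbol for 22 of the 39 members, with 24 promoters. Matched letter for letter to the older mouse build NCBIM37 (mm9), the RefSeq start of Hoxb8 is that of the gene model used for the peaks further on, while that of Hoxd13 lies 85 bases upstream and those of Hoxb4, Hoxa7 and Hoxc4 lie 1583, 3281 and 15459 bases downstream of it. Letters are 5′ to 3′ along the gene, and capitals mark each CG dinucleotide.
Hoxa7 promoter, chr6:52218524-52218823, minus strand: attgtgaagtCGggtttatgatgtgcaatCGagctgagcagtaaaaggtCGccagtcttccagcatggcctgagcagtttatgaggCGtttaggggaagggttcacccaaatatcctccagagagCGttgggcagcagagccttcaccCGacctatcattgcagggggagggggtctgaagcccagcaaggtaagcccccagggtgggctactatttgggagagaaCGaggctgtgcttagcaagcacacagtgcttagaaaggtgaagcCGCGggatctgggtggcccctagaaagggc
Hoxb4 promoter, chr11:96318017-96318316, plus strand: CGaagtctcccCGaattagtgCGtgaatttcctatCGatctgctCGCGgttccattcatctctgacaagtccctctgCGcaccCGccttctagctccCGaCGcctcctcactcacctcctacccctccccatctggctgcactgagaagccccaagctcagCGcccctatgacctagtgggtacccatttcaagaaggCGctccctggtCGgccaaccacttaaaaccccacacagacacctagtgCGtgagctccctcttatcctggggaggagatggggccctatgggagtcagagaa
Hoxc4 promoter, chr15:103034145-103034444, plus strand: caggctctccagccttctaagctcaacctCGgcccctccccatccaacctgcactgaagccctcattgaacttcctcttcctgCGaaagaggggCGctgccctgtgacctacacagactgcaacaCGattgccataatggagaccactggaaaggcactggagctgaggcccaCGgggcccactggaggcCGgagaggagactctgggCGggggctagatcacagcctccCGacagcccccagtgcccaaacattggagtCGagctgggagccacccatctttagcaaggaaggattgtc
Hoxb8 promoter, chr11:96281655-96281954, plus strand: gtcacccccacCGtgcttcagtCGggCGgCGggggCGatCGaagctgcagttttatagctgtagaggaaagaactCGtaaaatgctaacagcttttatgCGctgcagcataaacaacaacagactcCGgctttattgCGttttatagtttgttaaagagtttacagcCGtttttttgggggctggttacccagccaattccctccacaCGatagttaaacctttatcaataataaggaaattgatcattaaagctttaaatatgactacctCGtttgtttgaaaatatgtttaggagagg
Hoxd13 promoter, chr2:74667975-74668274, plus strand: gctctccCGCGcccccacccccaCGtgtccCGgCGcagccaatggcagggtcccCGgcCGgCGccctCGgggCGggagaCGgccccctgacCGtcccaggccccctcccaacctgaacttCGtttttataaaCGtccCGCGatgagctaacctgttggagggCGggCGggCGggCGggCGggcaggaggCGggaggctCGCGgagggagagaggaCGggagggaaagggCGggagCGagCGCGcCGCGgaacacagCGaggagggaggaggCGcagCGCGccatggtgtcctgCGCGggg
Hoxa7 held 9 CG dinucleotides in these 300 bases, Hoxb4 14, Hoxc4 9, Hoxb8 13 and Hoxd13 37. The median over all 32851 RefSeq promoters was 7, with 94.6% holding at least 1, and the median over the 24 Hox promoters was 14.5 (4 to 45). The letters TATAAA, searched on both strands, stood in 4 of the 24 Hox promoters (Hoxa10, Hoxb8, Hoxd4 and Hoxd13) and in 13.6% of all promoters. TGATTNAT, a composite Pbx and Hox motif, also on both strands, stood in those of Hoxa2 and Hoxd11 and in 3.22% of all promoters. These are matches of letters and show no binding.

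Hox expression in the B lineage was restricted to few genes of 2 clusters. Outside the Eed F/F Rag1-cre libraries, 8 Hoxa and 3 Hoxb genes reached 1 TPM in at least 1 of the 39 other libraries, while no Hoxc and no Hoxd gene did. Among those 39 libraries, Hoxa2 and Hoxa10 did so in cultured cells alone and Hoxb6 in Pax5 -/- progenitors alone. The sum over the 9 Hoxc genes was at most 0.918 TPM there and that over the 9 Hoxd genes at most 0.428 TPM. In Wapl +/+ pro-B cells the 39 genes summed to 38.7 and 50.3 TPM, of which the Hoxa cluster gave 29 and 37.0 TPM and the Hoxb cluster 9.66 and 13.1 TPM. Pax5 +/+ pro-B cells gave 28.6 to 43.3 TPM in all, and the Eed control pro-B cells 25.9 to 53.6 TPM. Levels of separate series are set side by side as a description. Tests stayed within a series, except that of Eed, whose fit has the series as a term.

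**Figure D1:**
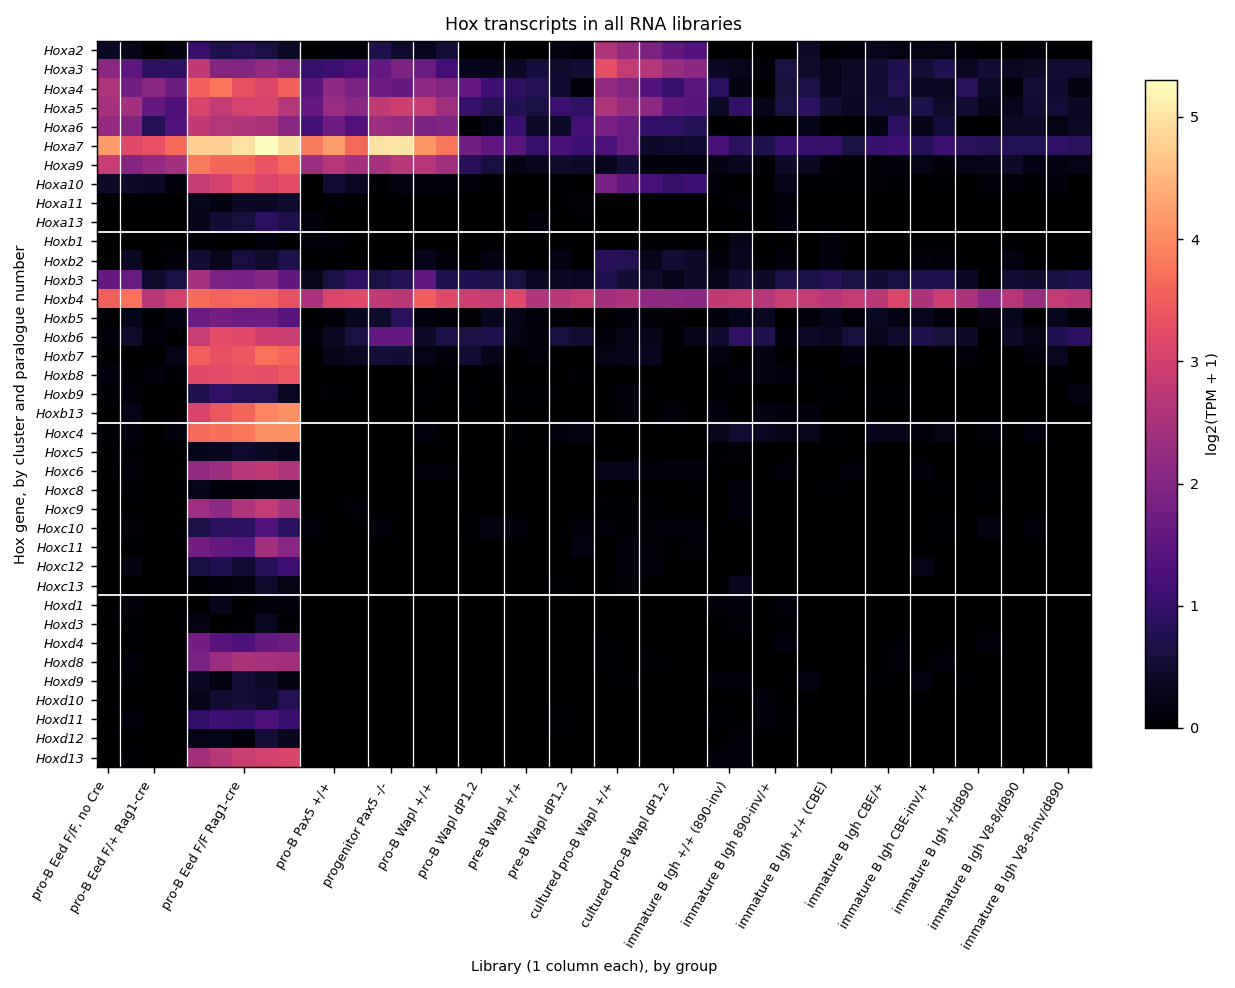
Level of 38 Hox genes (rows, by cluster, from low to high number) in each of the 44 RNA libraries (columns, by group), as log2(TPM + 1) on the colour scale. Hoxa3 to Hoxa9 and Hoxb4 carry the signal in pro-B cells, Hoxb4 remains in pre-B and immature B cells, and colour in the Hoxc and Hoxd rows appears in the 5 Eed F/F Rag1-cre libraries.

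Within the Hoxa cluster the signal lay in the middle. Hoxa7 was the highest Hox transcript of sorted control pro-B cells in all but 1 library, at 13 and 16.7 TPM in Wapl +/+, 11.5 to 17.7 TPM in Pax5 +/+ and 8.25 to 17.4 TPM in the Eed controls. Eed F/+ Rag1-cre replicate 1 was the exception, with Hoxb4 at 12.4 and Hoxa7 at 8.25 TPM. Its neighbours Hoxa3, Hoxa4, Hoxa5, Hoxa6 and Hoxa9 followed at 1.25 to 6.24 TPM in Wapl +/+ pro-B cells. Hoxa11 and Hoxa13 did not reach 1 TPM in any of the 44 libraries. Hoxb4 was the single Hox gene at 1 TPM or more in all 44 libraries, from 3.17 to 12.4 TPM. Gene models of the cluster share sequence: in the annotation on the older mouse build (NCBIM37, mm9) Hoxa3 overlaps Hoxa2, Hoxa4, Hoxa5 and Hoxa6, Hoxb8 overlaps Hoxb7 and Hoxd3 overlaps Hoxd4. How reads in shared stretches were counted, and whether strand was used, the sources used here do not say, so the levels of these genes are uncertain against each other.

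The Eed comparison asked how the clusters read when the Polycomb complex is targeted. In the libraries labelled Eed F/F Rag1-cre all 4 clusters were transcribed, and the 39 genes summed to 164 to 194 TPM against 25.9 to 53.6 TPM in the 4 controls. The Hoxa sum was 74.1 to 82.0 TPM against 19.9 to 40.7 TPM, and the Hoxb sum 52.0 to 60.2 TPM against 6.03 to 15.6 TPM. The clusters that summed to less than 1 TPM in all other libraries read 23.2 to 35.3 TPM (Hoxc, controls 0 to 0.493 TPM) and 11.3 to 16.6 TPM (Hoxd, controls 0 to 0.379 TPM). Between 22 and 24 members reached 1 TPM in each such library, against 5 to 8 in a control. The groups did not overlap in any of these 6 measures. In a bulk library, fewer cells of a type and less RNA per cell cannot be told apart, here and in every comparison below.

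Of all 39 members, 31 lay higher in each of the 5 Eed F/F Rag1-cre libraries than in each of the 4 controls, and none lay lower. Among the 18759 rows above 0 in any of the 9 libraries the same held for 11.9% (higher) and 6.95% (lower). All 9 Hoxc genes, 9 of 11 Hoxa genes, 7 of 9 Hoxd genes and 6 of 10 Hoxb genes were among the 31. Some of these separated near 0, such as Hoxc8, at 0.0712 to 0.191 TPM against at most 0.0503 TPM in the controls. The 8 whose groups overlapped were Hoxa3, Hoxa6, Hoxb1, Hoxb2, Hoxb3, Hoxb4, Hoxd1 and Hoxd3. In the Hoxb cluster the overlap thus covered the 3′ genes from Hoxb1 to Hoxb4 and the separation the 5′ genes from Hoxb5 to Hoxb13. Of these Hoxb1, Hoxb2 and Hoxb9 stayed below 1 TPM in all 44 libraries, and Hoxb3 was called higher in the test below.

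**Figure D2:**
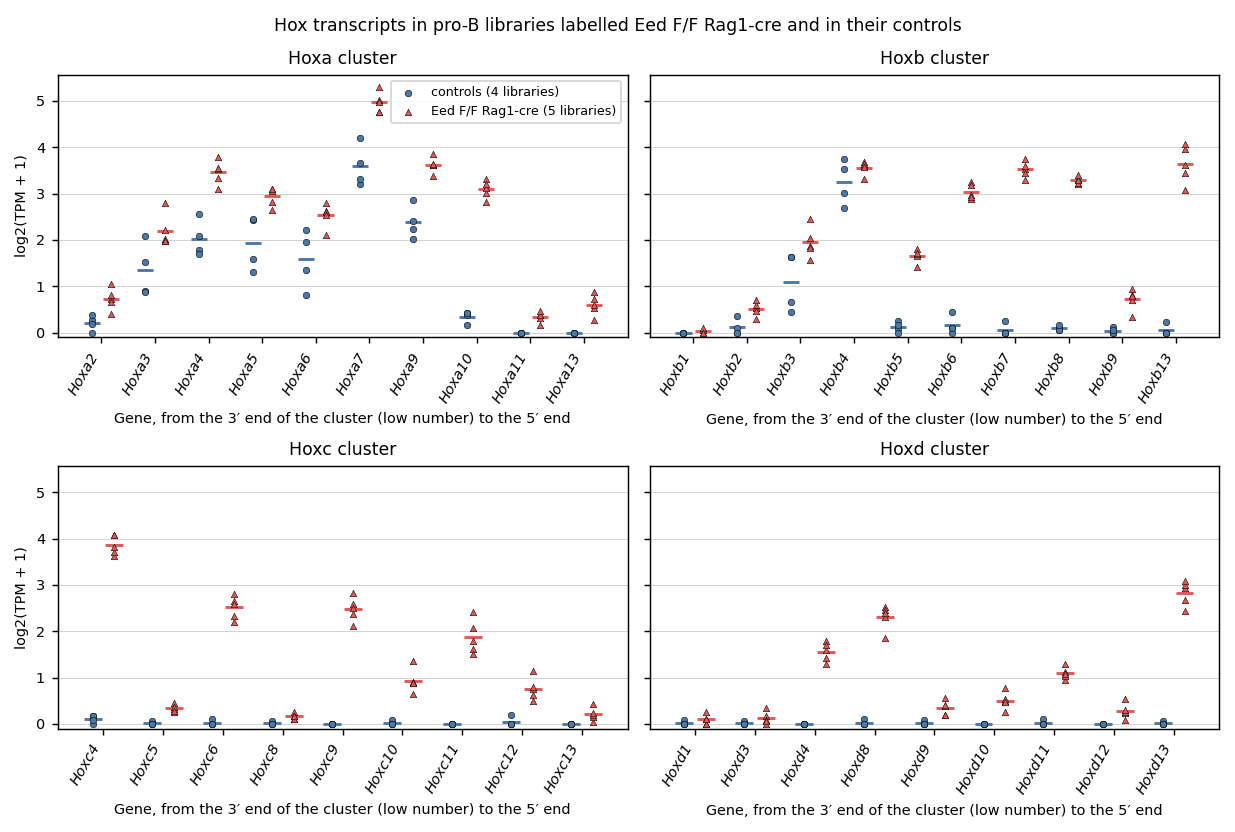
Level of 38 Hox genes as log2(TPM + 1), 1 panel per cluster with genes from the 3′ end (low number) to the 5′ end, in the 5 libraries labelled Eed F/F Rag1-cre and the 4 control libraries, 1 point per library, with a bar at the mean of each group. Hoxb4 points of both groups mix between 5.44 and 12.4 TPM, while every Hoxc gene stands above its controls. Some Hoxc genes do so at levels below 1 TPM.

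Each gene was then tested with limma on log2(TPM + 1), with the library series as a term and Benjamini-Hochberg adjustment over the 12338 rows that passed a filter of 1 TPM. In this test 21.8% of rows were called at an adjusted p under 0.05, 12.6% higher and 9.17% lower. Of the 39 members 22 passed the filter, and 21 of these were called higher. Only Hoxa4, Hoxa5, Hoxa7, Hoxa9 and Hoxb4 passed it on their control levels alone. The other 17 passed through the Eed F/F Rag1-cre libraries, where they had to be high to be tested, so their number is a description and their differences are given with an SE and no p. In a fit with no filter, which tested every member above 0 in any library, 15 of these 17 were called (adjusted p from 4.19e-05 to 0.0563 by limma), and Hoxa6 and Hoxb3 were not. A log2 difference with 1 TPM added understates the change of a gene that is near 0 in the controls.

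Hoxc4, at the 3′ end of its cluster, had the largest fitted difference of the members on the log2(TPM + 1) scale, with Hoxb13 close to it. The order turned with 0.1 TPM added (6.46 for Hoxb13, 6.22 for Hoxc4) and within library series 38 (3.89 and 3.82). It read 0.0538 TPM without Cre, 0.12, 0 and 0.12 TPM in F/+ and 11.4, 12.1, 13, 15.8 and 15.9 TPM in F/F Rag1-cre, a log2 difference of 3.69 (SE 0.124). The lowest F/F Rag1-cre library stood far above the highest control. Hoxc6 was 0, 0.0749, 0 and 0 TPM in the controls and 3.58, 4.02, 5.30, 5.99 and 5.01 TPM in F/F Rag1-cre (log2 difference 2.41, SE 0.135). Hoxc9 and Hoxc11 were listed at 0 in all 4 controls and at 3.33 to 6.09 TPM and 1.84 to 4.35 TPM in F/F Rag1-cre, and the other 5 Hoxc genes stayed between 0.0371 and 1.55 TPM.

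In the Hoxb cluster the neighbours Hoxb6, Hoxb7 and Hoxb8 were high together with the distant Hoxb13. Hoxb7 was listed at 0 in 3 controls and at 0.188 TPM in the fourth, and read 10.5, 8.88, 9.83, 12.4 and 11.1 TPM in F/F Rag1-cre (log2 difference 3.38, SE 0.117). Hoxb8, best known for blocking differentiation of myeloid progenitors when forced, was 0.121, 0.0451, 0.08 and 0.0451 TPM in the controls and 8.23, 8.38, 8.93, 8.77 and 9.64 TPM in F/F Rag1-cre (3.17, SE 0.107). Hoxb6 moved from 0.0807, 0.361, 0.08 and 0 TPM to 6.36, 8.45, 8.16, 6.85 and 6.58 TPM (2.94, SE 0.134). These 3 genes were near 0 in every control and between 6.36 and 12.4 TPM in the 5 F/F Rag1-cre libraries. Hoxb13, the most 5′ gene of the cluster and a posterior gene of the trunk and prostate, was listed at 0 in 3 controls and at 0.182 TPM in the other, and at 7.43, 9.82, 11.3, 14.6 and 15.9 TPM in F/F Rag1-cre (3.48, SE 0.187). Hoxb9, which lies between Hoxb8 and Hoxb13, stayed low at 0.268 to 0.920 TPM.

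Hoxb4 did not share this difference. It was already on in the controls, at 10.5 TPM without Cre and at 12.4, 5.44 and 7.07 TPM in F/+, and read 11.8, 11.1, 11.4, 11 and 8.98 TPM in F/F Rag1-cre. The groups overlapped, and the log2 difference of 0.37 had an SE of 0.231 and an adjusted p of 0.285.

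Among Hoxa genes the largest log2 difference was that of Hoxa10, and Hoxa7 stayed the highest in level. Hoxa7 was 17.4 TPM without Cre, 8.25, 8.94 and 11.7 TPM in F/+ and 26.2, 26.3, 31.2, 38.5 and 30.7 TPM in F/F Rag1-cre (log2 difference 1.23, SE 0.181, adjusted p = 0.00249). It was the highest Hox transcript of the study in these libraries, and each of them stood above the highest control. Hoxa10, 5′ of Hoxa9 and known with it from leukaemia, went from 0.34, 0.342, 0.303 and 0.114 TPM to 6.07, 7.11, 9.02, 7.68 and 8.30 TPM (2.74, SE 0.146). Hoxa4 (1.54), Hoxa9 (1.21) and Hoxa5 (1.09) were called higher too, as were Hoxa6 (1.00) and Hoxa3 (0.93), whose libraries overlapped between the groups. The calls of Hoxa6 and of Hoxb3 (0.95) were each lost in 5 of 9 other settings and in 7 of 9 fits with a library left out. That of Hoxa5 was lost in 4 of 9 such fits (highest adjusted p = 0.185 by limma), without F/F Rag1-cre replicates 2, 3 or 4 or F/+ Rag1-cre replicate 3. That of Hoxa3 was lost in 1 of them, without F/+ Rag1-cre replicate 3, and in 2 of 9 other settings. Hoxa2 (0.326 to 1.07 TPM), Hoxa11 (0.125 to 0.380 TPM) and Hoxa13 (0.207 to 0.837 TPM) stayed low in F/F Rag1-cre.

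In the Hoxd cluster the most 5′ gene was the highest. Hoxd13, a gene of digits and the urogenital end of the body axis, was listed at 0 in 3 controls and at 0.048 TPM in the other, and read 4.44, 5.42, 6.59, 7.05 and 7.53 TPM in F/F Rag1-cre (log2 difference 2.74, SE 0.134). Hoxd8 (2.60 to 4.74 TPM) and Hoxd4 (1.45 to 2.47 TPM) came next, and Hoxd11 reached 0.944 to 1.45 TPM. Hoxd1, Hoxd3, Hoxd9, Hoxd10 and Hoxd12 stayed at 0.705 TPM or less. High and low genes thus alternated along the cluster, and level did not follow gene number in a single direction in any of the 4 clusters.

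The 9 libraries fell into 3 series by library number, and within each series (1 F/F Rag1-cre and 1 control library in series 13, 1 and 2 in series 23, 3 and 1 in series 38) all 22 tested members were higher in F/F Rag1-cre. But 17 of them had passed the filter through the F/F Rag1-cre libraries, so for these the direction is a description. The share of all rows higher within each series was not computed. Eed F/+ Rag1-cre replicate 1 stood apart from the other controls, with Igll1 at 7941 TPM against 2960 to 3811 TPM. Without it 23 members were called. Over all rows, fits with 1 library left out called 1197 to 5154, against 2691 in the main fit. Counts of called members in altered fits are to be read against that spread. Without the 2 libraries that the design text places otherwise, and with no series term, since 2 of the 3 series then held 1 group only, 17 members were called, and Hoxa3, Hoxa5, Hoxa6 and Hoxb3 lost their call. In these 2 libraries Hoxc4 was 12.1 TPM (labelled F/F Rag1-cre) and 0.12 TPM (labelled F/+ Rag1-cre). All 4 transcripts of the Y chromosome in the gene lists were called lower, which goes with the Hox difference across these libraries, and its part in the result was not tested.

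Genes that act on or with the clusters moved in part. Of the TALE cofactors 7 of 9 were tested, 2 were called higher and 1 lower: Meis3 rose from 0.174 to 0.454 TPM to 8.25 to 9.30 TPM (log2 difference 2.89) and Pbx3 by 2.04, while Pknox1 fell by 0.64. Meis1 (-0.11, adjusted p = 0.737) did not pass the test. Of 12 upstream activators 10 were tested, with 1 higher and 4 lower. Cdx2, a caudal-type factor that activates posterior Hox genes in the embryo, went from at most 0.0556 TPM to 1.78 to 2.99 TPM (1.63), while Aff1 (-0.98), Kmt2a (-0.97) and Kmt2b (-0.58) were among those that fell. Of the 12 genes of Polycomb repressive complex 1, 4 rose, with Bmi1 from 20.3 to 37.0 TPM to 84.9 to 97.8 TPM (1.65, adjusted p = 0.000533). Of the 11 genes of Polycomb repressive complex 2, Eed (0.64) was called higher and Phf1 (-0.98) and Mtf2 (-0.57) lower. The medians of these 4 lists lay between -0.295 and 0.052 against -0.065 over all 12338 rows.

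Developmental regulators outside the clusters, most of them homeobox genes and known Polycomb targets, were listed for comparison. Of 30 such genes 9 passed the filter and 8 were called higher, with the same limit as for Hox genes that the F/F Rag1-cre libraries brought most of them past it. Lhx2 moved from 0.835 to 4.06 TPM to 62.7 to 87.0 TPM (log2 difference 4.59), and Gata4 from at most 0.0352 TPM to 4.37 to 10.2 TPM (2.93). Among the 6 genes tested that flank the Hox clusters, Mtx2 beside Hoxd1 rose by 0.72 and the other 5 did not pass the test. Markers of other blood cells moved in both directions. Of 7 myeloid markers tested Cebpa was called higher (log2 difference 2.90) and Lyz2 lower (-0.606), with a list median of -0.504, and the 8 markers summed to 49.1 to 114 TPM against 80.0 to 242 TPM in the controls. Of 4 plasmacytoid dendritic markers tested Ly6d (2.17) and Bst2 (1.33) were called higher and Tcf4 lower (-0.884), and the 5 markers summed to 1382 to 2015 TPM against 640.0 to 690.0 TPM. The 9 B-lineage markers summed to 10257 to 12466 TPM against 10089 to 24820 TPM, with Ebf1 (-1.14) called lower. The part of these markers in the Hox result was not tested.

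The Pax5 comparison set progenitors without Pax5 against committed pro-B cells. The Hoxa sum was 50.7 and 52.9 TPM in Pax5 -/- against 23.3 to 34.5 TPM in Pax5 +/+, the Hoxb sum 9.32 and 9.66 TPM against 5.23 to 10.1 TPM, and the Hoxd cluster was listed at 0 in all 5 libraries. Of 8 members tested 4 were called higher and none lower, with 36.9% of the 12023 rows called in either direction, 15.5% higher and 21.4% lower. The median over all rows was -0.113, and the changes are to be read against it. Without either Pax5 -/- library no member was called, with the lone library assumed to vary like the others.

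Hoxa7 was 13.3, 17.7 and 11.5 TPM in Pax5 +/+ and 31.2 and 31.6 TPM in Pax5 -/- (log2 difference 1.11, SE 0.189, adjusted p = 0.00369 by limma with Benjamini-Hochberg adjustment). Hoxa5 read 2.02, 3.90 and 3.26 TPM against 5.92 and 6.90 TPM (0.89, SE 0.248, adjusted p = 0.0264), and Hoxa6 1.27, 2.31 and 1.58 TPM against 4.03 and 3.75 TPM (0.86, SE 0.227, adjusted p = 0.0215). In these 3 adjacent genes both Pax5 -/- libraries stood above all 3 Pax5 +/+ libraries. The call of Hoxa5 was lost in the fit with no filter (adjusted p = 0.0675 by limma). Those of Hoxa7 and Hoxa6 were kept there (adjusted p = 0.0136 and 0.0432). Hoxb6 was 0.0958, 0.282 and 0.555 TPM against 2.02 and 1.98 TPM (1.21, SE 0.23), and passed the filter through Pax5 -/- alone (adjusted p = 0.00682 in the fit with no filter). Hoxa3 was close to the threshold (0.63, adjusted p = 0.0533), and Hoxa4 (-0.14), Hoxa9 (0.09) and Hoxb4 (-0.19) did not pass the test. Hoxb4 read 4.84, 7.65 and 8.11 TPM in Pax5 +/+ and 5.89 and 5.65 TPM in Pax5 -/-, with overlapping groups.

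Of the 20 members above 0 in any of the 5 libraries, 8 were higher in both Pax5 -/- libraries than in all Pax5 +/+ libraries and none was lower, where 21.8% and 30.6% of all rows did so. The cells differ in more than the allele: 8 of 9 B-lineage markers were called lower, with a summed level of 3101 and 3116 TPM against 11920 to 14201 TPM, and the progenitor receptor Flt3 was called higher (log2 difference 4.50). The share of the cell type in the Hox difference cannot be told apart from that of Pax5. Meis1 did not pass the test (-0.11, adjusted p = 0.638), 3 of 6 TALE cofactors tested were called lower, among them Pbx3 (-0.89) and Pknox1 (-0.84), and of the activators 5 of 9 tested fell, among them Dot1l (-1.03) and Kmt2a (-0.98). Of Polycomb repressive complex 2 genes 3 of 11 fell, among them Phf19 (-1.09) and Ezh2 (-0.85). The medians of these 3 lists were -0.475, -0.47 and -0.228.

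In sorted pro-B cells homozygous for Wapl ∆P1,2 the Hoxa cluster was low. Its sum was 4.74 and 6.58 TPM against 29 and 37.0 TPM in Wapl +/+, while the Hoxb sum was 8.17 and 8.5 TPM against 9.66 and 13.1 TPM. Of 7 members tested 5 were called lower and none higher, all of them Hoxa genes, where 17.3% of the 12465 rows were called, 7.65% higher and 9.63% lower. All 8 Hoxa genes above 0 in these 4 libraries were lower in both ∆P1,2/∆P1,2 libraries than in both Wapl +/+ libraries. Over all clusters this held for 10 of 20 members, with 2 higher, against 28.8% and 23.8% of all rows.

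Hoxa7 was 16.7 and 13 TPM in Wapl +/+ and 2.43 and 1.88 TPM in ∆P1,2/∆P1,2, a log2 difference of -2.32 (SE 0.204, adjusted p = 0.000467 by limma with Benjamini-Hochberg adjustment). Hoxa9, its 5′ neighbour and a regulator of early lymphoid progenitors, was 5.32 and 4.21 TPM against 0.785 and 0.531 TPM (-1.80, SE 0.172, adjusted p = 0.000652). In both genes each ∆P1,2/∆P1,2 library lay below either Wapl +/+ library. Hoxa6 read 2.71 and 2.85 TPM against 0 and 0.175 TPM (-1.80, SE 0.291, adjusted p = 0.00572). Hoxa5 read 6.24 and 4.19 TPM against 1.06 and 0.718 TPM (-1.71, SE 0.201, adjusted p = 0.0015), and Hoxa3 2.19 and 1.25 TPM against 0.217 and 0.193 TPM (-1.15, SE 0.205, adjusted p = 0.00838). The called genes thus covered the run from Hoxa3 to Hoxa9 with 1 gap, though the call of Hoxa3 was lost without Wapl +/+ replicate 1 or without ∆P1,2/∆P1,2 replicate 2 (highest adjusted p = 0.059 by limma). Hoxa3, Hoxa5, Hoxa6 and Hoxa9 passed the filter through Wapl +/+ alone, and all 4 were called in the fit with no filter as well (adjusted p from 0.00115 to 0.0136). The gap was Hoxa4, at 3.43 and 2.92 TPM against 2.02 and 1.2 TPM (-0.69, SE 0.209, adjusted p = 0.0589). Hoxb4 read 10.4 and 8.14 TPM against 6.70 and 6.25 TPM and did not pass the test (-0.45, adjusted p = 0.179).

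**Figure D3:**
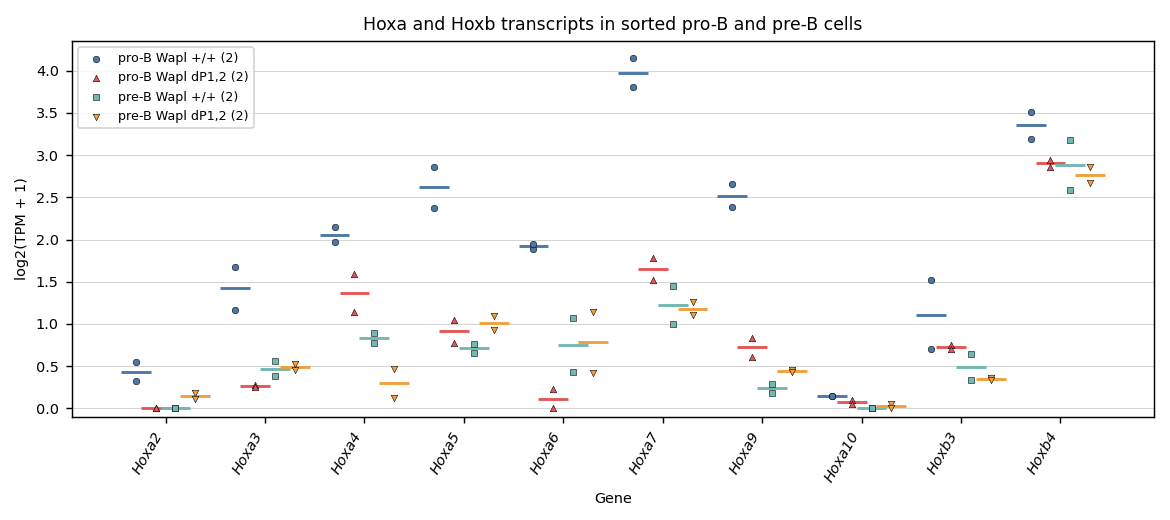
Level of the tested Hoxa genes and Hoxb4 as log2(TPM + 1) in sorted pro-B and pre-B cells, Wapl +/+ and ∆P1,2/∆P1,2, 1 point per library (2 per group), with a bar at the mean of each group. For Hoxa7 the Wapl +/+ pro-B points (13 and 16.7 TPM) stand above the other 3 groups, which lie between 0.996 and 2.43 TPM.

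Meis1, which acts with Hoxa9 in progenitors, lay between 10.8 and 14.2 TPM in Wapl +/+ and between 6.06 and 6.66 TPM in ∆P1,2/∆P1,2 (log2 difference -0.87, adjusted p = 0.0159), the single called gene of 6 TALE cofactors tested. None of 9 activators passed the test. Of Polycomb repressive complex 2 genes 4 of 11 were called lower, among them Rbbp7 (-0.55), Aebp2 (-0.47) and Suz12 (-0.42), and of 12 genes of complex 1 Pcgf2 (-0.94) and Bmi1 (-0.745) were. The medians of the TALE and complex 2 lists were -0.226 and -0.286, against -0.0109 over all rows. Among the flanking genes Skap1, beside the Hoxb cluster (-0.98), and Mtx2, beside Hoxd (-0.67), were called lower. Progenitor genes moved both ways, with Kit at 1.62 and Flt3 at -1.82, and 5 of 9 B-lineage markers were called higher (summed level 17096 and 19147 TPM against 13620 and 13879 TPM). Transcripts of the Y chromosome were present in both Wapl +/+ libraries (Eif2s3y at 5.75 and 17.1 TPM) and listed at 0 in both ∆P1,2/∆P1,2 libraries, so that sex and genotype cannot be told apart in this comparison.

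In pre-B cells, the next stage, the same allele gave no called member, where all members tested but Hoxb4 were already low in Wapl +/+. The Wapl row rose there as well, from 9.32 and 12.9 TPM to 47.8 and 45.7 TPM (log2 difference 2.00). None of the 7 members tested was called by limma, 1 had an unadjusted p under 0.05, and 3.02% of all rows were called. Hoxa7 was 1.74 and 0.996 TPM in Wapl +/+ and 1.39 and 1.15 TPM in ∆P1,2/∆P1,2 (log2 difference -0.04, adjusted p = 0.956), and Hoxb4 8.02 and 5.02 TPM against 5.38 and 6.25 TPM (-0.12, adjusted p = 0.86). Hoxa4 had the smallest p (-0.54, SE 0.209, adjusted p = 0.266). Meis1 (0.03, adjusted p = 0.974) did not pass the test, and nor did any of the 6 TALE cofactors, 9 activators, 11 and 12 genes of the Polycomb complexes and 6 flanking genes tested. Of 24 members above 0, 5 were higher and 3 lower in both ∆P1,2/∆P1,2 libraries, against 19.7% and 19.6% of all rows. Eif2s3y was 10.8 and 28.9 TPM in Wapl +/+ and at most 0.0668 TPM in ∆P1,2/∆P1,2, so sex goes with genotype here as well.

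The effect of the allele was then compared between the stages as 1 contrast over the 8 libraries. Of 7 members tested Hoxa7 (pre-B minus pro-B log2 difference 2.28, SE 0.289, adjusted p = 0.0082), Hoxa5 (2.00, SE 0.285, adjusted p = 0.0122) and Hoxa9 (2.00, SE 0.244, adjusted p = 0.00707) were called by limma with Benjamini-Hochberg adjustment, where 3.35% of all rows were. Hoxa6 (1.83, adjusted p = 0.059) and Hoxa3 (1.17, adjusted p = 0.079) did not pass, nor did Hoxa4 (0.15) and Hoxb4 (0.33). The contrast largely restates the pro-B difference: in Wapl +/+ pre-B cells Hoxa5 was at 0.70 and 0.582 TPM, Hoxa9 at 0.136 and 0.226 TPM and Hoxa7 at 1.74 and 0.996 TPM, so that with 1 TPM added a fall of the pro-B size could not show there. With Wapl +/+ pro-B replicate 1 or ∆P1,2/∆P1,2 pro-B replicate 2 left out, 1 member was called, Hoxa9.

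Between the Wapl +/+ stages 6 Hoxa genes fell and Hoxb4 did not pass the test. The Hoxa sum was 29 and 37.0 TPM in pro-B cells and 3.49 and 4.83 TPM in pre-B cells, and the Hoxb sum 9.66 and 13.1 TPM against 5.58 and 8.96 TPM. Of 7 members 6 were called lower by limma, where 57.7% of all rows were called, 23.8% higher and 33.8% lower. Between these stages all 6 met the filter through the pro-B cells, where they were high, so their number is a description. All 6 were called in the fit with no filter as well (adjusted p from 4.71e-05 to 0.0179 by limma). Hoxa7 went from 16.7 and 13 to 1.74 and 0.996 TPM (log2 difference -2.75, SE 0.204, adjusted p = 1.8e-05) and Hoxa9 from 5.32 and 4.21 to 0.136 and 0.226 TPM (-2.28, SE 0.172, adjusted p = 1.96e-05). Both were lower in each pre-B library. Hoxa5 went from 6.24 and 4.19 to 0.70 and 0.582 TPM (-1.90, adjusted p = 0.000116), and Hoxa4 from 3.43 and 2.92 to 0.86 and 0.716 TPM (-1.22, adjusted p = 0.0015). Hoxa6 went from 2.71 and 2.85 to 1.10 and 0.348 TPM (-1.17, adjusted p = 0.00945) and Hoxa3 from 2.19 and 1.25 to 0.302 and 0.478 TPM (-0.95, adjusted p = 0.00484). In each of these 4 genes the stages did not overlap, as in 13 of the 21 members above 0, all of them lower in pre-B cells, against 39.5% of all rows. Hoxb4 read 10.4 and 8.14 TPM against 8.02 and 5.02 TPM (-0.47, SE 0.206, adjusted p = 0.0842). Meis1 (-1.49, adjusted p = 0.00024) fell too, and 4 of the 6 TALE cofactors tested were called lower. The pro-B +/+ libraries serve in this contrast and in the comparison of the alleles, so they are not independent of each other. Erythroid and megakaryocyte markers (4 of 4 tested) and 5 of 8 myeloid markers were called higher in pre-B cells, and their part was not tested.

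Wapl +/+ pro-B cells expanded for 3 days read Hoxa2 and Hoxa10 at 1 TPM or more beside Hoxa3 to Hoxa7. In cultured ∆P1,2/∆P1,2 cells Hoxa6 and Hoxa7 were below 1 TPM. The cultured libraries form a series apart from the sorted cells, so cultured and sorted cells were not tested against each other. In cultured Wapl +/+ cells Hoxa3 led at 8.70 and 6.06 TPM, with Hoxa2 at 5.04 and 3.67 TPM and Hoxa10 at 2.54 and 1.97 TPM, while Hoxa7 was 1.47 and 2.20 TPM and Hoxa9 at most 0.434 TPM. The 5 stromal markers summed to 1306 and 1536 TPM in these libraries and to 709 to 913 TPM in cultured ∆P1,2/∆P1,2 cells, against at most 139 TPM in the sorted libraries, with Col1a1 (log2 difference -0.90), Col1a2 (-0.92) and Pdgfrb (-0.73) called lower in ∆P1,2/∆P1,2. The part of stromal RNA in the Hox levels was not tested.

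Of 8 members tested in culture 5 were called lower in ∆P1,2/∆P1,2 and none higher, where 21.7% of the 12457 rows were called, 3.16% higher and 18.5% lower, around a median of -0.18. When the libraries were rescaled to a median ratio of 1, the share of higher among the called rows moved from 14.6% to 40.1%, and 4 members were called. Hoxa7 was 1.47 and 2.20 TPM in Wapl +/+ and 0.336, 0.361 and 0.380 TPM in ∆P1,2/∆P1,2 (log2 difference -1.05, SE 0.173, adjusted p = 0.00558). Hoxa6 was 2.58 and 2.12 TPM against 0.937, 0.924 and 0.735 TPM (-0.84, adjusted p = 0.0107). Hoxa7 and Hoxa6 passed the filter through Wapl +/+ alone, where they were high. Both were called in the fit with no filter as well (adjusted p = 0.0103 for Hoxa7 and 0.0159 for Hoxa6 by limma). Hoxa2 read 5.04 and 3.67 TPM against 2.73, 1.95 and 1.58 TPM (-0.80, adjusted p = 0.0342, lost with no filter at 0.0805), and Hoxa4 3.59 and 2.97 TPM against 1.59, 1.08 and 1.79 TPM (-0.79, adjusted p = 0.0234). Each of these genes was lower in all 3 ∆P1,2/∆P1,2 libraries. Hoxa10 read 2.54 and 1.97 TPM against 1.36, 1.01 and 1.2 TPM (-0.57, adjusted p = 0.0492), a call that 4 of 5 other settings ended, rescaling among them. Eif2s3y was 72.3 and 71.4 TPM in ∆P1,2/∆P1,2 replicates 1 and 2 and at most 0.639 TPM in the other 3 libraries. Hoxa3 (-0.71, adjusted p = 0.0566), Hoxa5 (-0.69, adjusted p = 0.0742) and Hoxb4 (-0.36, adjusted p = 0.143) did not pass the test. Of 29 members above 0, 14 were lower in every ∆P1,2/∆P1,2 library and none higher, against 34.9% and 10.9% of all rows. Meis1 (-0.99), Pknox2 (-0.98) and Meis3 (-0.91) were the called genes of 9 TALE cofactors. Leaving out 1 library at a time gave 1 to 7 called members: 1 without Wapl +/+ replicate 1, 2 without Wapl +/+ replicate 2, 7, 2 and 3 without ∆P1,2/∆P1,2 replicates 1, 2 and 3.

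**Figure D4:**
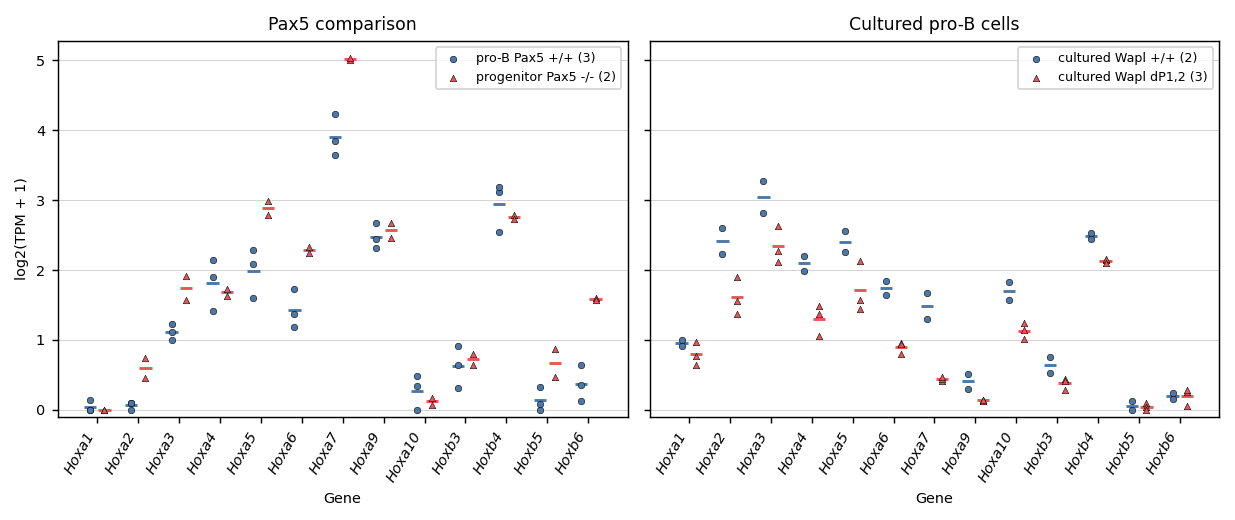
Level of the tested Hox genes as log2(TPM + 1) in Pax5 +/+ pro-B cells and Pax5 -/- progenitors (left) and in cultured pro-B cells of Wapl +/+ and ∆P1,2/∆P1,2 (right), 1 point per library, with a bar at the mean of each group. Hoxa5, Hoxa6 and Hoxa7 of Pax5 -/- stand above Pax5 +/+, and Hoxa7 of the cultured ∆P1,2/∆P1,2 cells lies between 0.336 and 0.380 TPM.

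In immature B cells Hoxb4 was the main Hox transcript left. Over the 17 libraries the 39 members summed to 5.68 to 13.4 TPM, and Hoxb4 gave 49.5% to 67.5% of that. Hoxb4 ranged from 3.17 through a median of 5.65 to 7.72 TPM and Hoxa7 from 0.55 through 0.825 to 1.36 TPM, and these were the 2 members that reached 1 TPM in any of these libraries. None of the heavy-chain alleles gave a called Hox gene in limma. The rows called came to 0.544% for 890-inv, 0.00834% for CBE, 0.0834% for CBE-inv, 0.235% for V8-8 and 0.219% for V8-8-inv, of which Hoxb4 and, in the first 3, Hoxa7 could be tested. Meis1 (1.91 to 4.45 TPM) was called in none of the 5 comparisons either. CBE and CBE-inv share their controls, as do V8-8 and V8-8-inv.

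The balance of the 2 main genes differed between sorted Wapl +/+ pro-B and pre-B cells, but not by stage alone. The ratio of Hoxb4 to Hoxa7 in TPM was 0.622 and 0.627 in Wapl +/+ pro-B cells, 0.363 to 0.702 in Pax5 +/+ pro-B cells and 0.179 to 0.189 in Pax5 -/- progenitors. It was 4.61 and 5.04 in Wapl +/+ pre-B cells and 4.38 to 11.2 over the immature B-cell libraries. Sorted ∆P1,2/∆P1,2 pro-B cells, with 2.76 and 3.32, lay between the Wapl +/+ pro-B and pre-B cells. Other pro-B groups spread as widely: the ratio was 0.605 without Cre and 0.605 to 1.5 in the Eed F/+ Rag1-cre libraries, 0.286 to 0.449 in Eed F/F Rag1-cre, 2.18 and 3.02 in cultured Wapl +/+ and 8.66 to 10.1 in cultured ∆P1,2/∆P1,2 pro-B cells. These ratios are given as a description across library series and were not tested.

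**Figure D5:**
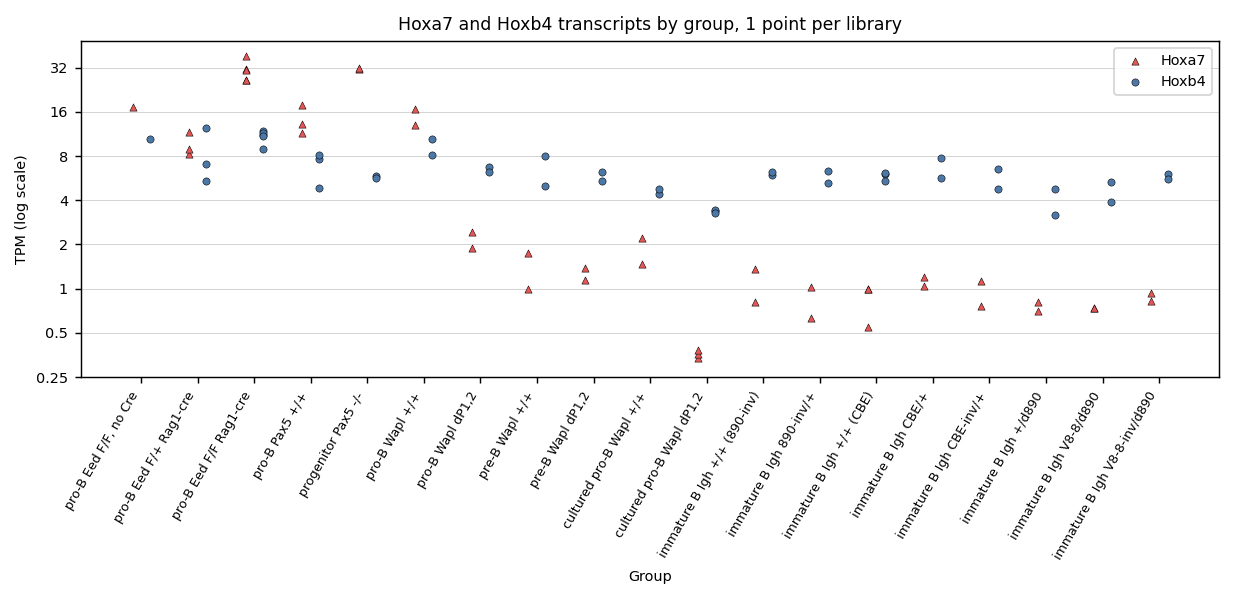
Level of Hoxa7 and Hoxb4 in TPM on a log axis for each of the 19 groups, 1 point per library. Hoxb4 stays between 3.17 and 12.4 TPM in all 44 libraries, while Hoxa7 runs from 0.336 to 38.5 TPM.

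CTCF stops loop-extruding cohesin at its sites, and Wapl takes cohesin off chromatin. The authors' peak lists for wild-type pro-B cells held 36687 and 36133 peaks, and 34272 peaks of the first overlapped the second by at least 1 base. These cells had been cultured for 5 days, against 3 days for the cultured RNA. In the Hoxa cluster (chr6:52105366-52210874, mm9) both lists held the same 5 peaks. In the Hoxb cluster (chr11:96055630-96229570) 10 peaks were in both, with 4 in the Hoxc cluster (chr15:102751534-102867274) and 5 in the Hoxd cluster (chr2:74506367-74603200). Distances are to the starts of the mm9 gene models, which for Hoxa7 and Hoxb4 are not the starts of the promoters printed above. Peak centres lay 43 bases upstream of the start of Hoxa7, 67 upstream of that of Hoxa5, 364 upstream of that of Hoxa6 and 220 downstream of that of Hoxa10. Between the start of Hoxb4 and the 3′ end of the Hoxb cluster there was none, the nearest lying 4960 bases upstream of Hoxb4.

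The peaks at Hoxa7 and Hoxa10 are shown around a match to the core of the CTCF motif, because these peaks lie at gene-model starts of members described above. The match, in capitals, is on the minus strand and so reads as the reverse complement. The 100 bases are from the NCBIM37 (mm9) genome.
CTCF peak at Hoxa7, chr6:52171764-52171863, plus strand: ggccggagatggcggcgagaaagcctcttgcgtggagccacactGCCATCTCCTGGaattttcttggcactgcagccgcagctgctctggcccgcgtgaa
CTCF peak at Hoxa10, chr6:52190496-52190595, plus strand: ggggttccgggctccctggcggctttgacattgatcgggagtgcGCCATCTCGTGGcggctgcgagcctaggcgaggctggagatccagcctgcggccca
This permissive form of the core, searched on both strands over whole peaks, stood in 49.9% of all 36687 peaks of the first list and in 6 of the 25 peaks of the Hox clusters (24.0%). At the Hoxa5 and Hoxa6 peaks it was not found. A peak is a place of binding in wild-type cells, and no CTCF list of Wapl or Eed genotypes was used here.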

How the data were processed

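RNA of 44 libraries in 19 groups was analysed. Of the 167 samples of the series, the other assays were not used here except for the CTCF peaks of wild-type pro-B cells. The authors deposited TPM per gene and library. In 11 of these files the header is a library number, and the deposited signal in them adds up to the same total of 1000000 per library as the authors' TPM, so it was used as TPM. Of the deposited CTCF lists the peak positions alone were used, and no other value, on mm9 per the series' design text. The submitters' processing notes list the builds mm9 and mm10 and, among tools, MACS2 2.0, featureCounts 1.5.0 and Bowtie2 2.2.9, without roles. For the TPM the aligner, counter and strand setting are not stated.

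Values were taken as log2(TPM + 1). A row was tested when the number of its libraries at or above 1 TPM reached the size of the smaller group. The test was two-sided, with limma 3.58.1 (R 4.3.3, trended variance), Benjamini-Hochberg adjusted over all rows tested, threshold 0.05. The 12 comparisons were fitted within a library series, except Eed, whose fit has the series as a term. The steps were tested on simulated data. Tables were summarised with Python 3.11.15 and pandas 2.3.3. Replicates were numbered in accession order and were not paired. TPM keep no depth, so no counting intervals are given. The members and the gene lists were chosen with earlier results of these data known. Given by library are all called members (the 8 with the largest log2 difference where more were called) and the highest member of each cluster at 1 TPM or more. Of each gene list, up to 4 called genes are named, with Meis1 and the targeted gene, and some genes that this rule names are not reported here. Alternatives were pseudocounts of 0.1 and 0.5, no filter, a filter on a mean of 0.5 TPM, rescaling, no series term, other controls, and leaving out each library; a fit without the 2 Eed libraries that the design text places otherwise, with no series term, was added after seeing the data.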

Additional observations from a re-analysis of the deposited data

Results flagged for a closer look

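In the 5 libraries labelled Eed F/F Rag1-cre, 3 of 25 genes checked had a library far from the other 4, where chance gives about 1 in 20. Hoxa3 was 5.97 TPM in replicate 1 and at most 3.65 TPM in the others. Hoxb4 was lowest in replicate 5 at 8.98 TPM, with the next at 11 TPM. The Eed row was 222 TPM in replicate 1 and at most 132 TPM in the others.

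The effect of Wapl ∆P1,2/∆P1,2 differed between pro-B and pre-B cells for 3 Hoxa genes in limma's test of the difference. As pre-B minus pro-B on the log2 scale it was 2.28 for Hoxa7 (adjusted p = 0.0082), 2.00 for Hoxa5 (adjusted p = 0.0122) and 2.00 for Hoxa9 (adjusted p = 0.00707). In Wapl +/+ pre-B cells these genes were at 1.74 TPM or less.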

How the results depend on the processing

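No member called in a main comparison changed sign there under any alternative tried. Some members that were not called did, such as Hoxa4 and Hoxa9 in the Pax5 comparison. Leaving out 1 library at a time gave 17 to 23 called members for Eed, 0 to 5 for Pax5, 4 to 6 for Wapl in pro-B cells, 0 in pre-B cells, 1 to 4 for the difference between the stages, 5 to 7 between the Wapl +/+ stages, 1 to 7 in culture and 0 in each heavy-chain comparison. Without a filter on low values 10 members were called lower in Wapl +/+ pre-B cells, against 6, where more low members were tested; other settings gave 17 to 29 for Eed, 4 to 5 for Pax5, 5 to 6 for Wapl in pro-B cells and 4 to 5 in culture. For the members called in the main comparisons, 293 of 342 fits with a library left out kept the call and 49 lost it. Under the other settings 289 of 309 kept it and 20 lost it. Members tested but not called in the main comparisons gained a call in 7 and 2 fits. Members that the main filter left out are not in these counts. The number of all genes called ranged from 1197 to 5154 for Eed, 1379 to 5074 for Pax5, 836 to 1988 for Wapl in pro-B cells and 460 to 5985 in culture with a library left out, and the cause was not tested. Where a group was left with 1 library, that library was assumed to vary like the others. No paired analysis was possible because the labels carry no replicate numbers. With TPM alone the depth behind low Hox levels is unknown.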

Other observations

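The Wapl row, listed as Wapal, stood at 163 and 405 TPM in the 2 immature B-cell libraries labelled Igh +/+ of the 890-inv series. Hoxc and Hoxd transcripts were not quite at 0 in those libraries either, with Hoxc sums of 0.294 and 0.918 TPM and Hoxd sums of 0.258 and 0.428 TPM, of which 0.918 and 0.428 TPM were the highest among the 39 libraries that are not Eed F/F Rag1-cre. Both came from replicate 2, which also had the most rows above 0 (16680). In 890-inv/+ of the same series the Hoxc sums were 0.268 and 0.252 TPM and the Hoxd sums 0.18 and 0.293 TPM. A link to the Wapl row was not tested.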
